A study of Cricetulus griseus with 10 samples.

Results

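Agt encodes angiotensinogen, and Rxfp1 encodes the relaxin receptor RXFP1. These 2 genes of the 25156 features in the deposited table were followed through the adaptation of CHO-K1 cells to suspension culture, Agt as gene number 100773858 and Rxfp1 as gene number 100766211. Both were chosen by their values at passage 0, where they were nearly silent, so their levels there and their differences from that passage describe the choice and were not tested. CHO-K1 is an established Chinese hamster ovary line, and per the labels the cells were wild type and were adapted in SFM4CHO, a serum-free medium. RNA was sequenced at passages 0, 2, 4, 6 and 10 (P0, P2, P4, P6 and P10), with 2 libraries at each passage and 10 in all. The labels state neither how the cells of P0 were grown nor whether the duplicates came from separate cultures. The p-values therefore reflect no more than the spread between libraries, which may be technical.

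Angiotensinogen is the secreted precursor of the angiotensin peptides. Angiotensin I is cut from its amino-terminal end, and angiotensin-converting enzyme (ACE) trims that peptide to angiotensin II, which acts on the receptors AT1 and AT2. By its fold angiotensinogen is a serpin, although it inhibits no protease, and its main source in mammals is the liver, with further expression in fat tissue and in astrocytes of the brain. RXFP1 is a G protein-coupled receptor with a long extracellular leucine-rich repeat domain and is the main receptor of the peptide hormone relaxin. It raises cyclic AMP through the stimulatory G protein, is found in reproductive tissues and in fibroblasts, and is known there for the effects of relaxin on collagen turnover.

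The libraries held 8394219 to 16599495 reads assigned to features, and values below are normalised reads, which are reads divided by 1 size factor per library and not by gene length. The duplicates of P0, P2 and P4 correlated across genes at 0.988, 0.989 and 0.992, and those of P6 and P10 at 0.956 and 0.930. P6 replicate 2 and P10 replicate 1 stood apart from the rest also in the share of all normalised reads held by the feature Dym, which was 1.15% and 1.41% there, 4.32% in P6 replicate 1 and 8.53 to 13.5% in the other 7 libraries. Among markers of cell type, the mesenchymal Vim was high throughout (12373 to 23048 normalised reads). That list of 9 genes was mixed, as 3 of them had at most 6.99 normalised reads and 1 of these had no read. The ovarian granulosa list was mixed too. Fshr was low (9.36 to 50.6), and the steroidogenic Star had 991 to 1817 normalised reads after P0 and 206 and 220 at P0. Of the epithelial list, Cdh1 had 50.6 to 337 normalised reads and the keratins Krt8 and Krt18 at most 4.95 and 1.12. In bulk RNA of this kind, fewer cells that express a gene and less of its RNA in each cell cannot be told apart.

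Agt had no read in either P0 library, among 12818981 and 8495567 reads. The P2 libraries had 818 and 734 normalised reads, the P4 libraries 1448 and 1452, the P6 libraries 549 and 289, and the P10 libraries 70.0 and 124. The level was highest at P4, where the duplicates lay closest together. Both libraries of each later passage lay above both P0 libraries, by which Agt was chosen. The same was seen in 34.2%, 37.8%, 32.0% and 28.3% of all features tested at P2, P4, P6 and P10. As means the levels were 776 ± 58.9, 1449.9 ± 3.26, 419 ± 184 and 97.1 ± 38.2 normalised reads at P2, P4, P6 and P10 (SD, n = 2 each). A count of 0 allows up to 3 reads, or 2.61 and 4.31 normalised reads in the 2 P0 libraries. Against that floor of 3 reads per library, Agt was at least 419-fold higher at P4 than at P0 and at least 121-fold higher at P6.

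A complete lack of reads at P0 with many reads later was rare in the table, but Agt was chosen for its silence at P0. Its place among such features therefore describes the choice. By a looser rule, 18 features averaged at least 100 normalised reads later and over 20 times their P0 mean or the floor. There were 6874 features with no read in either P0 library, of which 3249 had a read in a later library and 6 averaged at least 10 normalised reads over the 8 later libraries. Agt led these by read number, at 685 normalised reads, with the next feature, known only by a gene number, at 70.9. These are reads per feature and not per length.

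Rxfp1 was read at P0, with 10 and 8 reads in the libraries, or 8.71 and 11.5 normalised reads. The P2 libraries had 305 and 279 normalised reads, the P4 libraries 415 and 385, the P6 libraries 565 and 747, and the P10 libraries 275 and 169. The highest level came at P6, later than that of Agt, and P10 replicate 1 lay just below P2 replicate 2. The means were 10.1 ± 1.97, 292 ± 18.2, 399.6 ± 21.2, 656 ± 129 and 222 ± 75.3 normalised reads from P0 to P10 (SD, n = 2 each). Relative to P0 the mean was 28.9-fold higher at P2, 39.5-fold at P4, 64.9-fold at P6 and 22.0-fold at P10.

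**Figure D1:**
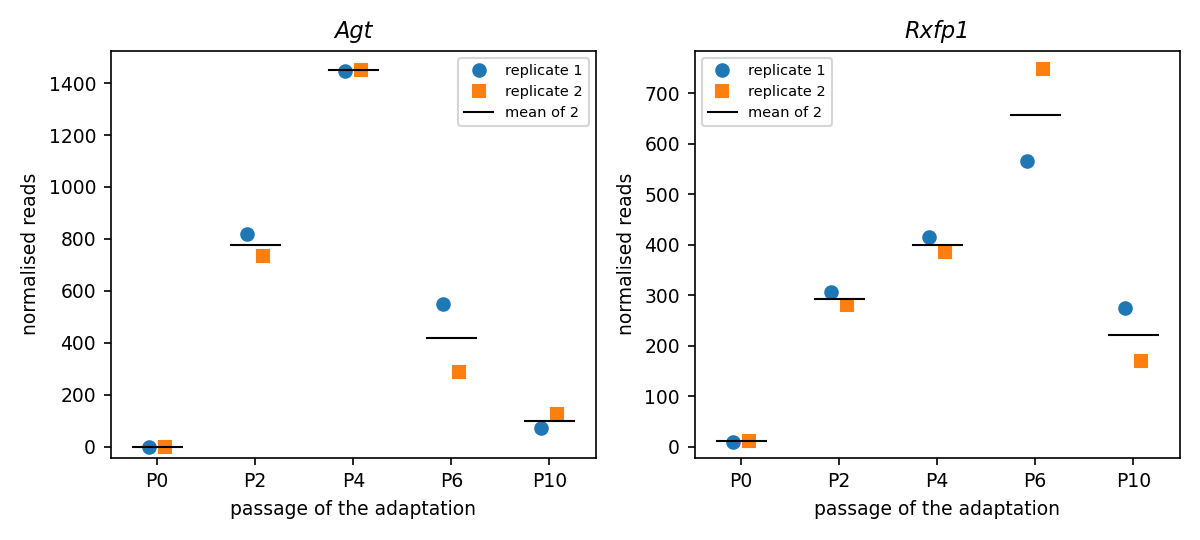
Normalised reads (linear axis from 0) of Agt and Rxfp1 in each library by passage, with circles for replicate 1, squares for replicate 2 and a bar at the mean of the 2 libraries. Agt is at 0 at P0 and highest at P4 (1448 and 1452), and Rxfp1 is highest at P6 (565 and 747).

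In the order of the means, Agt ran P4, P2, P6, P10, P0 and Rxfp1 ran P6, P4, P2, P10, P0. The later passages were compared by limma on log2 of the normalised value plus 1, fitted to the 8 libraries of P2 to P10 so that the silent P0 libraries added nothing to the spread. All 13521 features averaging 10 or more normalised reads entered, with Benjamini-Hochberg adjustment over all of them and a threshold of 0.05. The 4 comparisons share libraries with each other.

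Agt fell at P10 against P2. The P10 libraries held 70.0 and 124 normalised reads and the P2 libraries 818 and 734, with a log2 difference of -3.04 (SE 0.36, limma adjusted p = 0.0223) and a 7.99-fold lower mean. In this comparison 0.414% of all features were called in either direction, 0.126% higher and 0.288% lower, and 19 of the 13521 had a more negative difference than Agt. The call was lost without P2 replicate 1 or 2 (limma adjusted p = 0.226 and 0.256), without P4 replicate 1 or 2 (0.0982 and 0.0981), with features of any level admitted (0.0797), and when the spread came from the P2 and P10 libraries alone (0.211). Rxfp1, with 275 and 169 normalised reads at P10 and 305 and 279 at P2, did not pass (log2 difference -0.44, 95% interval -1.07 to 0.20, limma adjusted p = 0.509). Whether the 2 genes' differences differ from each other was not tested.

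From P6 to P10 the libraries of both genes were lower. Agt had 70.0 and 124 normalised reads at P10 and 549 and 289 at P6 (log2 difference -2.08, SE 0.36, 95% interval -2.92 to -1.24). Rxfp1 had 275 and 169 at P10 and 565 and 747 at P6 (log2 difference -1.59, SE 0.27, 95% interval -2.22 to -0.95). Neither passed after adjustment (limma adjusted p = 0.645 for both), although by p-value they ranked 8 and 7 among the 13521 features. No feature was called in this comparison (0.0%), while 939 had an unadjusted p under 0.05, edgeR called none and DESeq2 called 43. Both P10 libraries lay below both P6 libraries, as for 11.1% of all features. Without P10 replicate 1, which leaves 1 library at P10, the log2 differences were -1.67 for Agt and -1.94 for Rxfp1. By DESeq2 on reads recovered from the table both genes passed (adjusted p = 0.000292 and 0.00211).

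Between P4 and P6 the values of Agt and Rxfp1 differed in opposite directions. Agt had 549 and 289 normalised reads at P6 and 1448 and 1452 at P4 (log2 difference -1.86, SE 0.36), and Rxfp1 had 565 and 747 at P6 and 415 and 385 at P4 (log2 difference 0.70, SE 0.27). The limma adjusted p was 0.261 for both, no feature was called (0.0%), 2578 features had an unadjusted p under 0.05, edgeR called none and DESeq2 called 103. Libraries that were both lower at P6 than at P4, as for Agt, were seen in 33.9% of features, and both higher, as for Rxfp1, in 32.6%. Without P10 replicate 1, which leaves these 4 libraries as they are and changes only the pooled spread, the adjusted p was 0.0163 for Agt and 0.0419 for Rxfp1, and without P10 replicate 2 it was 0.0161 and 0.0415. DESeq2 called Agt (adjusted p = 0.00174) and not Rxfp1 (0.176).

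From P2 to P4 both genes were higher in both libraries, as were 26.0% of all features. The log2 difference was 0.90 for Agt (95% interval 0.06 to 1.74), with 1448 and 1452 normalised reads at P4 and 818 and 734 at P2. For Rxfp1 it was 0.45 (95% interval -0.18 to 1.08), with 415 and 385 at P4 and 305 and 279 at P2. Neither passed (limma adjusted p = 1.0 for both), and no feature was called (0.0%), with 203 at an unadjusted p under 0.05, none by edgeR and 9 by DESeq2. With the spread from the P2 and P4 libraries alone, where duplicates lay closer together, both passed (limma adjusted p = 0.000264 and 0.0420).

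**Figure D2:**
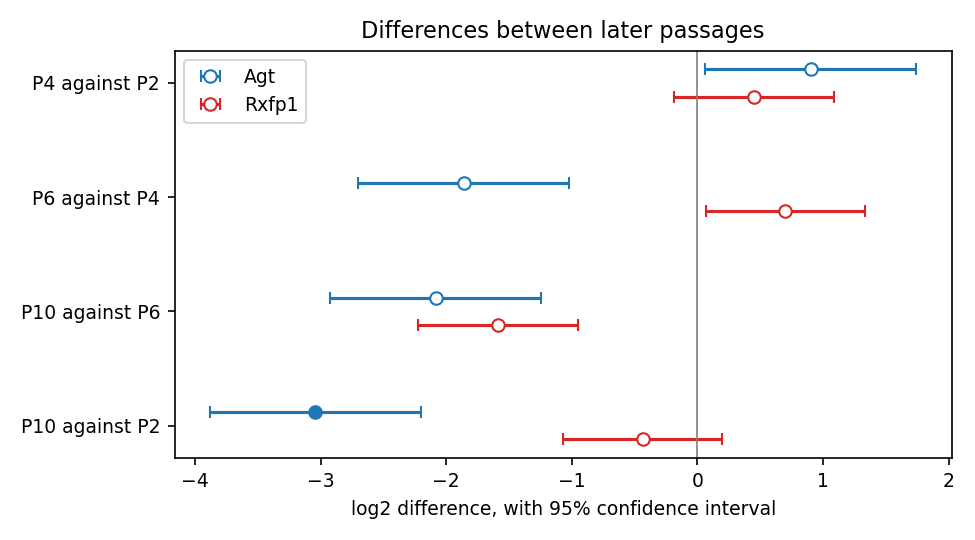
Log2 difference between later passages (x axis) for Agt (blue) and Rxfp1 (red), with the 95% confidence interval from limma as bars and a filled point where the adjusted p was under 0.05. The filled point is Agt at P10 against P2 (-3.04), and at P6 against P4 the points lie on opposite sides of 0 (-1.86 and 0.70).

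The ratio of Agt to Rxfp1 reads within a library is free of the library's scaling. The P2 libraries gave 2.68 and 2.63, the P4 libraries 3.49 and 3.78, the P6 libraries 0.972 and 0.386, and the P10 libraries 0.255 and 0.736. Agt thus had more reads than Rxfp1 in each P2 and P4 library and fewer in each P6 and P10 library. The ratio concerns reads and is no comparison of levels per length.

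The duplicates of P6 and P10 differed in opposite directions for the 2 genes. Over all features tested, the gap between replicates at P6 correlated with that at P10 at -0.67. A reversal between these passages was thus not particular to Agt and Rxfp1. In P6 replicate 2, Agt was 1.90-fold below replicate 1 and Rxfp1 was 1.32-fold above it. In P10 replicate 1, Agt was 1.77-fold below replicate 2 and Rxfp1 was 1.63-fold above it. These are the libraries in which the Dym share was lowest, and its part in the results was not tested. Paired library by library, Agt was 2.33 to 7.84-fold higher at P6 than at P10 over the 4 possible pairs, and Rxfp1 2.05 to 4.43-fold. With both of these libraries left out, an alternative chosen after seeing the data, 1 library is left at P6 and at P10. The log2 difference at P10 against P6 was then -2.14 for Agt and -1.74 for Rxfp1.

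Of the enzymes that make or trim angiotensins, Ace, the gene of ACE, had few reads while Agt was high. It lay between 7.59 and 14.8 normalised reads over the 10 libraries and was not called at any passage. At P4, where Agt peaked, Ace had 14.8 and 11.7. Ctsd, a lysosomal aspartic protease that can release angiotensin I in the test tube, had 2636 to 8296 normalised reads and was not called at any passage.

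Prep, a prolyl peptidase that can cut angiotensins, fell at each later passage against P0, and Enpep, an aminopeptidase that shortens angiotensin II, fell at P10. Prep averaged 967 ± 122, 476 ± 63.4, 401 ± 10.8, 379.8 ± 15.8 and 433 ± 31.7 normalised reads from P0 to P10 (SD, n = 2 each), with limma adjusted p of 0.0171, 0.00443, 0.00248 and 0.00476 for P2 to P10. Enpep averaged 20.1 ± 9.71 at P10 and 55.1 ± 4.68 at P0 (SD, n = 2 each; log2 difference -1.49, limma adjusted p = 0.0289). The Prep call at P6 held in all 10 fits that left out a library. The P2 call was lost without any 1 of the P0, P2 and P4 libraries (highest 0.207), the P4 call without P0 replicate 1 or either P4 library (0.0681) and the P10 call without P0 replicate 1 (0.0640). The Enpep call was lost without any 1 of the P0, P2 and P4 libraries or P10 replicate 2 (0.175).

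Among angiotensin receptors, the feature named Agtr1, for the AT1 receptor, and Mrgprd, a receptor of a further angiotensin peptide, had no read in any of the 10 libraries. No feature matched Agtr2 or Mas1. Atp6ap2, an accessory subunit of the vacuolar proton pump, had 1007 to 1905 normalised reads and was not called. Mtus1, whose product binds the AT2 receptor, rose to 217 ± 60.1 normalised reads at P6 and 188 ± 103 at P10, against 43.1 ± 8.07 at P0 (SD, n = 2 each). Its log2 differences were 2.29 and 2.00 (limma adjusted p = 0.00611 and 0.0109), lost at P6 without P0 replicate 2 (0.0527) and at P10 without either P0 library (highest 0.0800). Like Rxfp1, Mtus1 was higher in replicate 2 of P6 and in replicate 1 of P10 than in the other library of that passage. Such a reversal was common, as the replicate gaps at P6 and P10 correlated at -0.67 over all features tested.

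Of the relaxin family ligands and receptors other than Rxfp1, 6 matched a feature and most of these had few reads. Rln3, the gene of relaxin-3, reached 1.17 normalised reads and Insl5, of a related peptide, 7.82, while no feature matched Rln1 or Insl3, so their levels were not measured. The receptor gene Rxfp2 lay between 0.989 and 14.6, and Rxfp3 and Rxfp4 had a read in 1 library each. Insl6 was the one gene of this list with enough reads to test, and was not called, with 18.8 normalised reads in P6 replicate 1. Its P6 replicate 2 value of 50.6, against 3.90 to 18.8 in the other 9 libraries, was in the library where Rxfp1 was highest. That library stood apart from the rest also in its Dym share (1.15%), and a link between Insl6 and Rxfp1 was not tested.

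Over the enzymes, angiotensin receptors and partners and relaxin family, 39 genes were listed, 26 matched and 14 were tested. Over P2, P4, P6 and P10 against P0, 0, 0, 1 and 1 rose and 1, 1, 1 and 2 fell. Over all features 4.15%, 9.24%, 21.0% and 17.0% were called, of which 2.08%, 3.72%, 10.5% and 8.77% were higher and 2.07%, 5.52%, 10.5% and 8.25% lower. Without P6 replicate 2 and P10 replicate 1 the family gave 3, 9, 4 and 8 calls, beside 34.1%, 43.1%, 48.8% and 46.3% of all features called in that fit. None of the 14 was called between later passages, and 12 were not tested.

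**Figure D3:**
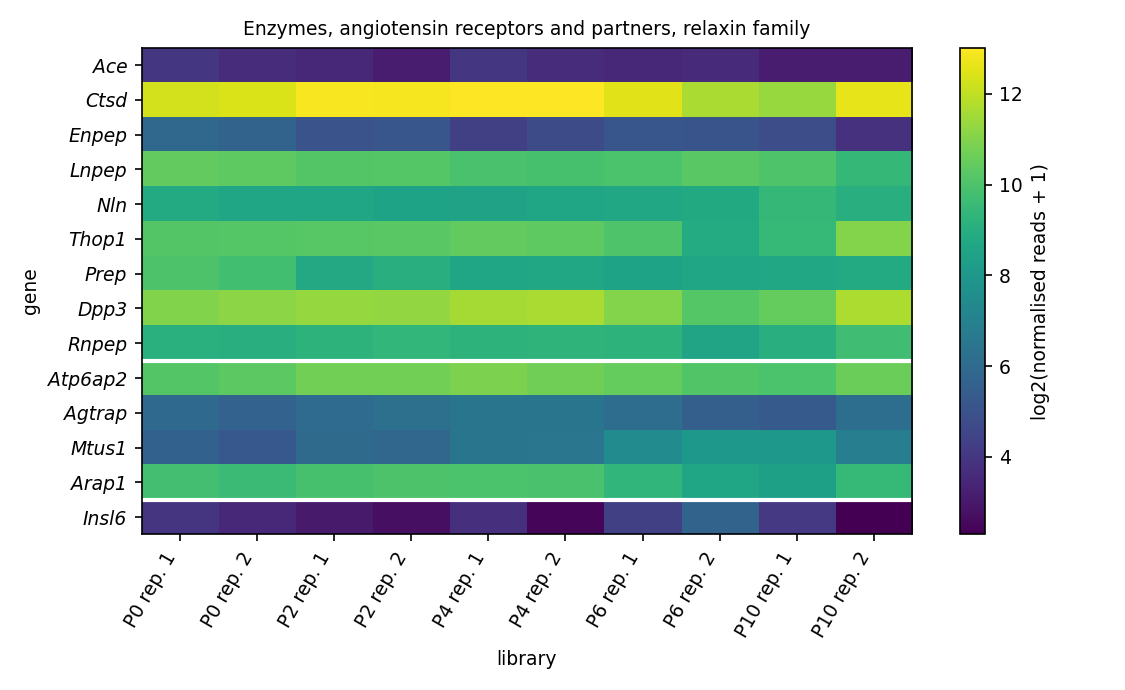
Log2 of normalised reads plus 1 (colour) for the 14 tested genes of the enzyme, angiotensin receptor and relaxin family lists (separated by white lines) in each library (columns, P0 to P10). Mtus1 is brighter at P6 and P10 (means of 217 and 188 normalised reads) than at P0 (43.1), and colours compare libraries and not genes, since reads are not scaled by length.

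RXFP1 acts through cyclic AMP. Of 25 tested genes of that route, 0, 1, 1 and 1 rose and 1, 2, 3 and 2 fell over P2 to P10 against P0, beside 4.15%, 9.24%, 21.0% and 17.0% of all features called in either direction. The list had median log2 differences of 0.03, 0.07, 0.07 and -0.11, beside 0.01, 0.03, -0.07 and 0.00 for all features. Prkacb, a catalytic subunit of protein kinase A, fell at every passage, with means of 1108 ± 163, 415 ± 9.02, 377 ± 14.0, 425 ± 32.5 and 326 ± 32.9 normalised reads from P0 to P10 (SD, n = 2 each). The P2 call (limma adjusted p = 0.00450) was lost without P0 replicate 1 or either P2 library (highest 0.0707), and the calls of the other passages held in all 10 fits. Adcy2, the cyclase described in the human RXFP1 complex, was highest in P6 replicate 2, as Rxfp1 was. That library stood apart from the rest also in its Dym share (1.15%). Adcy2 had 228 normalised reads there, against 43.7 to 117 in the other 9 libraries, and was not called. The 5 tested leucine-rich repeat receptors related to RXFP1 were not called either.

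Relaxin is known to lower collagen and raise matrix metalloproteinases in fibroblasts, and 12 genes of such a list were tested. Over P2 to P10 against P0, 3, 3, 4 and 2 rose and 0, 0, 1 and 2 fell, while 2.08%, 3.72%, 10.5% and 8.77% of all features were called higher and 2.07%, 5.52%, 10.5% and 8.25% lower. Genes of the list differed in direction. Col3a1, the chain of collagen III, rose at P2, P4 and P6 (log2 differences 1.90, 1.87 and 0.97), and Col1a1, a chain of collagen I, at P2 and P4 (2.93 and 1.93). Timp1, an inhibitor of metalloproteinases, rose at all 4 passages (1.09, 1.52, 1.05 and 0.68). Of these calls only that of Timp1 at P4 held in all 10 fits, and the others were lost without P0 replicate 1 among other libraries (highest limma adjusted p = 0.201 for Col3a1, 0.236 for Col1a1 and 0.173 for Timp1). Mmp2, a gelatinase, had 52.3 and 85.1 normalised reads at P10 and 10.5 and 7.19 at P0 (log2 difference 2.81, SE 0.39, limma adjusted p = 0.00319), and Fn1, fibronectin, fell at P10 (-2.28, adjusted p = 0.000541). These 2 calls at P10 held in all 10 fits. Rxfp1 itself had 275 and 169 normalised reads at P10.

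Of 18 tested factors tied to Agt transcription in other species, 1 rose at each passage and 0, 3, 6 and 5 fell over P2 to P10 against P0. Over all features 4.15%, 9.24%, 21.0% and 17.0% were called, 2.08%, 3.72%, 10.5% and 8.77% higher and 2.07%, 5.52%, 10.5% and 8.25% lower. The fallers were Nfkb1, Nr2f1 and Nr2f2 at P4, P6 and P10, Stat3 and Thra at P6 and P10, and Ppara at P6. Thra had log2 differences of -1.82 and -2.03. Each call of a faller was lost without P0 replicate 1. The riser was Nr1h3, the oxysterol-sensing nuclear receptor LXR-alpha. Nr1h3 averaged 607 ± 11.8, 2432 ± 0.0421, 2315 ± 8.80, 1930 ± 297 and 1661 ± 239 normalised reads from P0 to P10 (SD, n = 2 each). Its log2 differences of 2.00, 1.93, 1.66 and 1.44 passed in every fit without 1 library (highest limma adjusted p = 0.0328). At P10 the Nr1h3 mean was above that of P0 but was its lowest after P0, as it was for Agt (70.0 and 124). The log2 values of Nr1h3 and Agt correlated at 0.906 over the 8 libraries of P2 to P10. The part of Nr1h3 in the Agt results was not tested. Nr3c1, the glucocorticoid receptor, which acts on the rodent Agt promoter, had 638 to 1241 normalised reads and was not called. Of 13 tested genes known to respond to glucocorticoids, 0, 1, 1 and 0 rose and 2, 2, 2 and 1 fell in the same comparisons, with the same shares of all features called. The liver factor gene Foxa2 had no read in any library.

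In the serpin family, to which angiotensinogen belongs by fold, 8 of 21 matched genes were tested, and 1, 3, 1 and 1 rose and 0, 0, 0 and 1 fell over P2 to P10 against P0, beside 4.15%, 9.24%, 21.0% and 17.0% of all features called. Serpinf1, which like Agt encodes a secreted serpin that inhibits no protease, had 765 and 1040 normalised reads at P10 and 5061 and 4993 at P2. Like Agt it fell between them (log2 difference -2.49, SE 0.21, limma adjusted p = 0.00768), and as with Agt the call was lost without any 1 of the P2 and P4 libraries (highest 0.159). Unlike Agt it was highest at P2 and had 1892 and 1983 normalised reads at P0.

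Markers of tissues in which angiotensinogen is usually made were read beside Agt. Of 9 hepatocyte markers 7 matched, none was tested, and their summed level was 6.99 to 14.8 normalised reads in every library, with Alb at most 4.36. Astrocyte markers summed to 17.9 to 50.3, with Gfap at most 3.96. Adipocyte markers summed to 777 to 1514 after P0 and 412 to 431 at P0, while Adipoq and Lep, the genes of adipocyte hormones, had at most 1.17 and 0.780. The 2 tested genes of that list were Cidec and Fabp4. Cidec rose at P6 and P10 (log2 differences 0.52 and 1.09). Its P10 call held in all 10 fits and its P6 call in 2 of them (highest limma adjusted p = 0.208). Leukocyte markers summed to 105 to 218 after P0 and 54.0 to 64.7 at P0, with Cd14 and Cd3e at most 0.780 and 1.12. On that list Itgax, an integrin chain, averaged 0.719 ± 1.02, 36.6 ± 1.22, 74.7 ± 4.84, 20.1 ± 1.44 and 25.7 ± 10.1 normalised reads from P0 to P10 (SD, n = 2 each) and rose at every passage in all 10 fits (highest limma adjusted p = 0.0310). Cd68, a lysosomal protein of macrophages, rose at P4 and P6 (log2 differences 1.34 and 1.53), calls lost without either P0 library, at P4 also without any 1 of the P2 and P4 libraries and at P6 also without P6 replicate 2 (highest 0.234). The part of the adipocyte and leukocyte genes in the Agt and Rxfp1 results was not tested.

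Within the adipocyte list, Fabp4, a fatty acid binding protein also made by macrophages and singled out after its values were seen, followed Agt closely. It averaged 19.6 ± 0.677, 707 ± 89.8, 995.9 ± 28.8, 291 ± 74.5 and 136 ± 7.49 normalised reads from P0 to P10 (SD, n = 2 each), so that both were highest at P4. Fabp4 also fell at P10 against P2 (log2 difference -2.37, SE 0.23, limma adjusted p = 0.0102), a call lost without any 1 of the P2 and P4 libraries (highest 0.159). The Pearson correlation of its log2 values with those of Agt was 0.980 over 10 libraries and 0.967 over the 8 of P2 to P10. The first value includes the P0 libraries, by which Agt was chosen.

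The features most like each gene were found by the Pearson correlation of log2(value + 1) over libraries, among 9275 other features that averaged 50 or more and carried a gene symbol. The points share passages and libraries, so the values rank features and carry no test. Values over all 10 libraries include the P0 libraries by which both genes were chosen, so they partly describe that choice. Over all 10 libraries the 6 most like Agt were Vstm4, a membrane protein of the immunoglobulin family (0.991), the ubiquitin ligase Pja1 (0.991), Nod2, a sensor of bacterial cell walls (0.990), Nr1h3 (0.988), the tetraspanin Tspan3 (0.982) and the interferon-induced Isg15 (0.980). Of these Isg15 too was nearly unread at P0, with 94.8 and 80.5 normalised reads at P2 and 0.871 and 0 at P0. Those most like Rxfp1 were Mllt11 (0.993), the interferon receptor chain Ifngr1 (0.991), Fkbp14, a prolyl isomerase of the endoplasmic reticulum (0.984), the fatty acid receptor Cd36 (0.983), the alcohol dehydrogenase Adh7 (0.980) and Gtf2h5, a subunit of a repair and transcription factor (0.977).

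Agt and Rxfp1 correlated with each other at 0.933 over the 10 libraries, where Rxfp1 was number 49 in likeness to Agt. These include the P0 libraries, where both were chosen for being nearly silent, so that value partly describes the choice. Over the 8 libraries without P0 the value was 0.35, and Rxfp1 was number 2998. Without P0, the features most like Agt were Loxl3, a lysyl oxidase-like enzyme (0.993), Armcx3 (0.983), the phospholipase Plcd3 (0.977), the sialyltransferase St3gal3 (0.975), the amino acid transporter subunit Slc7a7 (0.974) and the matricellular Cyr61 (0.972). Cyr61 followed Agt after P2 but was highest at P0, with 319 and 361 normalised reads at P2 and 1036 and 878 at P0. Those most like Rxfp1 were Herc6 (0.983), the nucleotide sugar transporter Slc35d2 (0.969), P4ha3, a collagen prolyl hydroxylase (0.967), Dzip1 (0.966), Pea15 (0.965) and Mllt11 (0.964). Mllt11 was on both lists of Rxfp1, and no feature was on both lists of Agt.

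**Figure D4:**
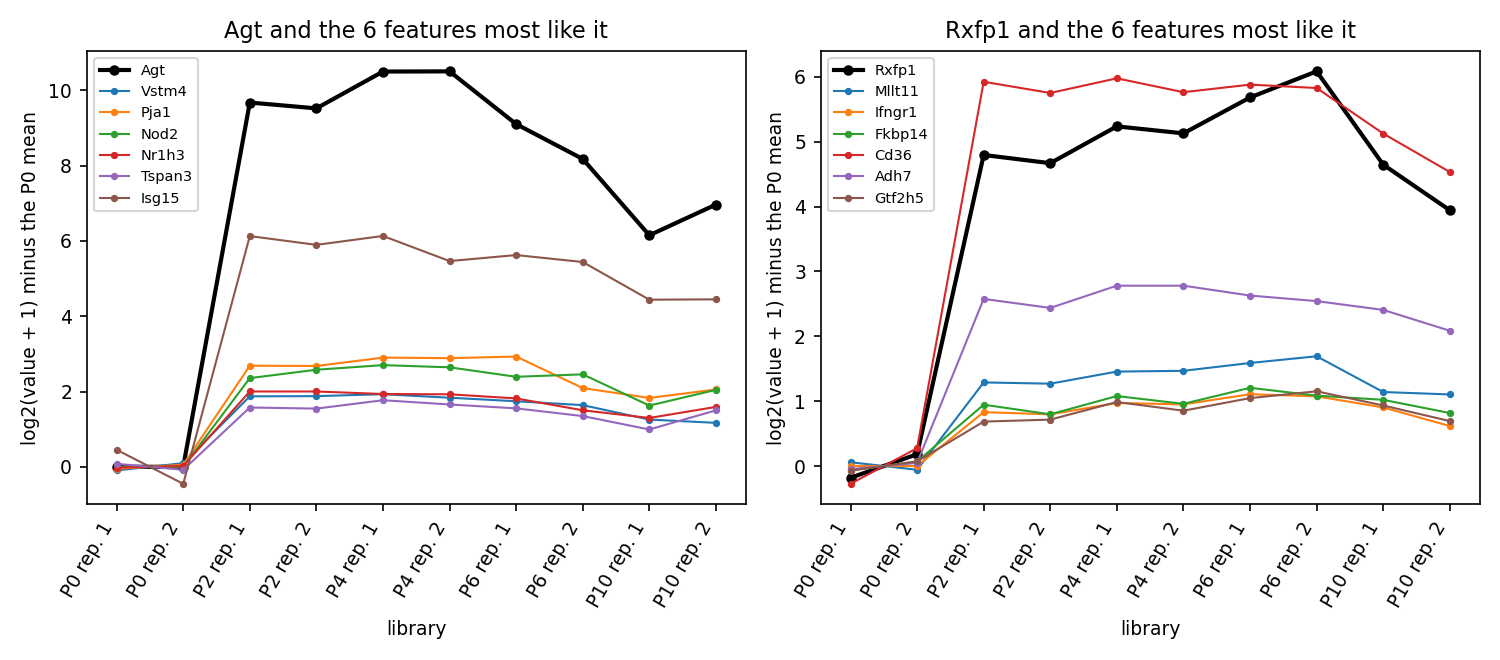
Log2(value + 1) minus the P0 mean (y axis) in each library (x axis) for Agt and Rxfp1 (black) and the 6 features most like each over 10 libraries (colours). Agt stands farther above P0 than its 6 companions in every later library, while Cd36 lies above Rxfp1 in every later library but P6 replicate 2.

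The genes next to each member were taken from the RefSeq annotation of CriGri-PICRH-1.0, which may not be the authors' build. Agt lies between Cog2, which serves Golgi traffic, and Capn9, a calpain protease. Cog2 had 376 to 750 normalised reads and Capn9 11.5 to 42.2, and neither was called in any of the 8 comparisons. Farther out, Pgbd5 reached 5.62, and the gene LOC100766946 had 131 and 84.3 normalised reads at P6 and 256 and 211 at P0. That difference (log2 -1.14, limma adjusted p = 0.0295) was called, opposite in sign to that of Agt, and was lost without any 1 of the P0, P2 and P4 libraries or P6 replicate 2 (highest 0.178).

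Rxfp1 lies between Tmem144, which had at most 2.25 normalised reads and was not tested, and C1H4orf46, which had 71.9 to 236.5. The next genes out, Gask1b and the mitochondrial dehydrogenase gene Etfdh, had 339 to 486 and 1212 to 1798 normalised reads. The tested neighbours of Rxfp1 were called in none of the 8 comparisons.

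**Figure D5:**
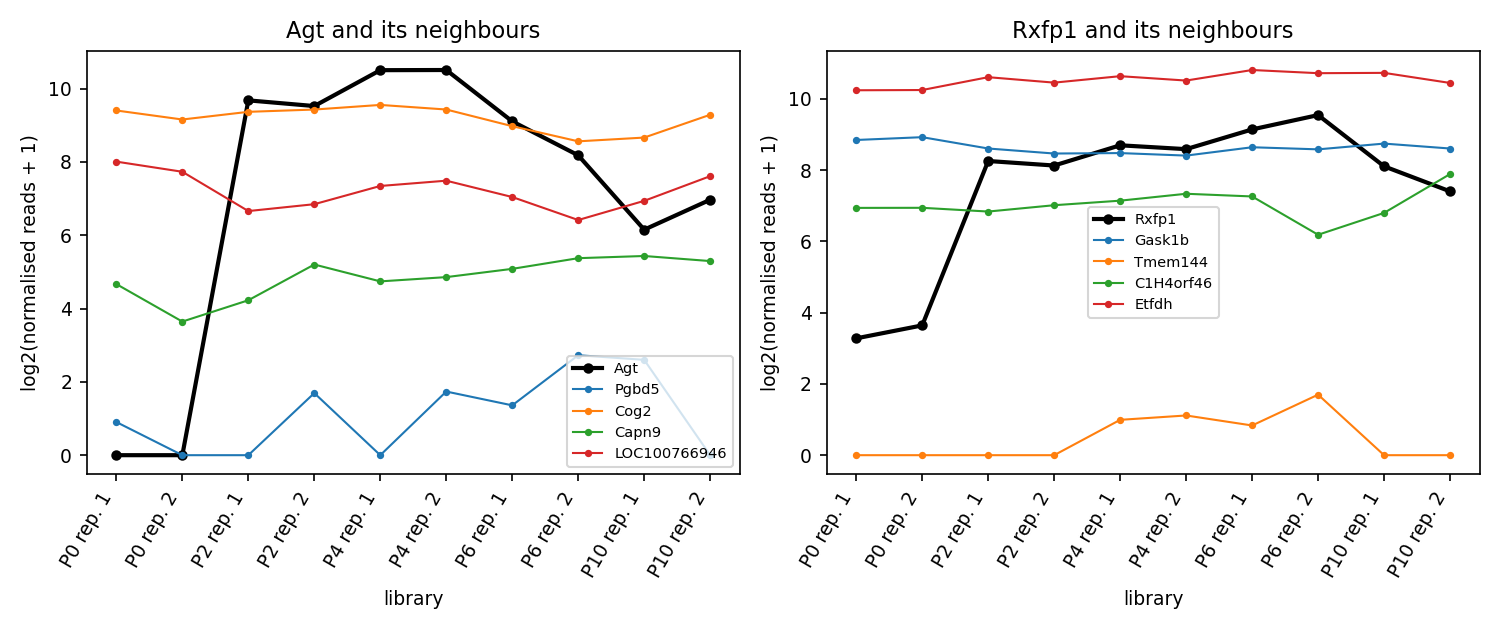
Log2 of normalised reads plus 1 (y axis) in each library (x axis) for Agt and Rxfp1 (black) and the 4 nearest protein-coding genes of each (colours). The black lines climb between P0 and P2. Cog2 has 376 to 750 normalised reads and Gask1b 339 to 486. Ranges on this axis are wider for Capn9 (11.5 to 42.2), LOC100766946 (84.3 to 256) and C1H4orf46 (71.9 to 236).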

How the data were processed

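Per the labels' protocols, RNA was taken with Trizol, ribosomal RNA was removed with Ribo-Zero, and libraries were made with a stranded TruSeq kit. The deposited signal is read counts per feature divided by 1 size factor per library, which the authors made with DESeq, per the submitters' processing notes. No source used here names the aligner, counter, genome build or annotation.

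The deposited values were whole multiples of 1 step per column (100% within 0.01 reads), by which reads were recovered. For P4 replicate 1 that step is so near 1 that scaled reads and rounded values are hard to tell apart, which touches the count tests only. Of 25156 features, 5106 carry a symbol in the deposited table, and 16386 of the other 20050, which carry numbers, matched a symbol in RefSeq.

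The test was limma 3.58.1 (R 4.3.3) on log2(value + 1) with a trended prior, 1 mean per passage, two-sided p-values and Benjamini-Hochberg adjustment over the 13521 features averaging 10 or more. The 8 libraries of P2 to P10 entered for later passages, and all 10 for list genes against P0. The alternatives were other pseudocounts (0.5 and 5), filters and TMM scaling, fits to fewer or more libraries, a replicate block, and edgeR 4.0.16 and DESeq2 1.42.0 on the recovered reads. Only the limma fit of P10 against P2 was tried on simulated counts, and its outcome is not given here. Those counts were drawn independently, so the 2 libraries that stood apart were not imitated.

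The members, the 16 lists (223 entries, 189 matched) and the alternatives were chosen with earlier results of these data known. Genes named are the members, the 6 features most like each, genes called in each list (at most 4, fewer where space was short), defining pathway genes and the 2 neighbours on each side. Other genes were named after their values were seen. Floors cover counting error only. Some genes of the lists are not reported here.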

Additional observations from a re-analysis of the deposited data

How the results depend on the processing

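The direction of the Agt and Rxfp1 differences between later passages was the same in all 152 combinations of the 8 results with an alternative, and 127 kept their side of the threshold, 18 gained a call and 7 lost one. The Agt difference at P10 against P2 (-3.04) lost its call with no filter on low values (adjusted p = 0.0797), with the spread of those 2 passages alone (0.211) and with the replicate block (0.105). Leaving out 1 library gave -3.45 to -2.63. The other ranges without 1 library were 0.83 to 0.98, -2.32 to -1.40 and -2.55 to -1.62 for Agt at P4 against P2, P6 against P4 and P10 against P6, and 0.39 to 0.51, 0.50 to 0.90, -1.94 to -1.24 and -0.79 to -0.09 for Rxfp1 in the same comparisons and P10 against P2. From the 2 passages alone, P4 against P2 passed for Agt (0.90) and Rxfp1 (0.45). By DESeq2, Agt passed at P6 against P4 (-1.78) and P10 against P6 (-2.14), and Rxfp1 at P10 against P6 (-1.59). A fit without P6 replicate 2 and P10 replicate 1, chosen after seeing the data, leaves 1 library at P6 and at P10. Its differences in the 3 steps were 0.90, -1.40 and -2.14 for Agt. For Rxfp1 they were 0.45, 0.50 and -1.74, and -0.79 at P10 against P2. The causes were not tested.

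Counts of called features moved more. For P4 against P2 (0) they were 569 from the 2 passages alone, 9 by DESeq2, 555 without both libraries, and 0 to 5 without 1 library. For P6 against P4 (0) they were 4, 103, 4464, and 0 to 2406. For P10 against P6 (0), DESeq2 gave 43, the fit without both libraries 4358, and those without 1 library 0 to 1410. For P10 against P2 (56) the count was 15 with no filter, 37 at a mean of 50, 170 with all 10 libraries, 0 from the 2 passages alone, 11 with the replicate block, 531 by DESeq2, 3767 without both libraries and 0 to 2672 without 1. Against P0, P2 (561) gave 3940 from the 2 passages alone, 261 with the block, 1052 by DESeq2, 4616 without both libraries and 61 to 1578 without 1. P4 (1250) gave 5677 from the 2 passages alone, 767 with the block, 5829 without both libraries and 143 to 2783 without 1. P6 (2841) gave 6595 without both and 412 to 5441 without 1. P10 (2301) gave 49 from the 2 passages alone, 6256 without both and 315 to 4738 without 1.

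Of the angiotensin and relaxin genes, called at P2, P4, P6 and P10 in 1, 1, 2 and 3 cases, the 2 passages alone gave 3, 8 and 0 at P2, P4 and P10, the fit without both libraries 3, 9, 4 and 8, and those without 1 library 0 to 1, 0 to 5, 1 to 3 and 0 to 5. No pairing of samples by replicate number was assumed outside the replicate block. Gaps between replicates correlated over passages at -0.67 to 0.23, and 1 of 10 pairs was over 0.1. With 2 libraries per passage these values cannot settle whether samples were paired. TMM scaling moved the median of all features by less than 0.1 and no call of either gene. With 2 libraries per passage, small differences are not detectable.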
